A study of Homo sapiens with 17 samples.

Results

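L1PA3 is a primate LINE-1 subfamily older than L1HS and L1PA2 and younger than L1PA4. The copies described here are the loci of the deposited repeat table that are annotated exactly as L1PA3 and are longer than 5900 bases, the length of a nearly complete element. This choice used the locus names alone and no measured value. It gave 1457 copies, out of 10361 L1PA3 loci and 3594049 repeat loci of all kinds.

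LINE-1 elements copy themselves through RNA. A complete copy encodes ORF1p, a protein that binds RNA in many molecules along a transcript, and ORF2p, which carries the endonuclease and the reverse transcriptase, and both bind mainly the RNA they were translated from. Copies as old as L1PA3 have gathered mutations and are generally regarded as no longer mobile, but many are still transcribed in embryonal carcinoma cells, in which LINE-1 is active.

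The study used RIP-seq, which sequences the RNA recovered with an immunoprecipitated protein, in the established human line N2102Ep (embryonal carcinoma). The libraries fall into 4 groups. ORF2p RIP (4 libraries) and ORF1p RIP (4 libraries) hold RNA recovered with each protein, mock IP (3 libraries, whose sample names carry mIgG) is the pulldown background, and total RNA (6 libraries) is RNA of the same line without a pulldown label. In all of them RNA was taken up in TRIzol, DNase came before cDNA synthesis, and human ribosomal RNA was depleted in library preparation. Clone 2/A6 of the line is named for ORF2p RIP, for mock IP and for total RNA, while the ORF1p RIP labels name no clone, so a clone difference and the pulldown cannot be told apart for ORF1p. The total RNA sample names carry a prefix b in replicates 1 and 2 and bl in replicates 3 to 6. Whether the mock antibody matches those of both pulldowns is not stated, so an effect of the antibody and one of the pulled-down protein cannot be told apart over mock IP. No label states that the replicates are separate cultures, so each p-value measures the spread between libraries, which may be technical.

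A LINE-1 RNA is transcribed from a promoter inside its own 5′ UTR and encodes ORF1p, a protein that binds and coats RNA, and ORF2p, which carries the endonuclease and reverse transcriptase used for copying into the genome. Both proteins are known to bind preferentially the RNA that encoded them. L1PA3 copies are generally taken to be no longer able to move, and the subfamily is known in a form that keeps and a form that lost a stretch of 5′ UTR bound by the zinc finger protein ZNF93.

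The libraries held between 7693841 and 19670774 reads assigned to repeats. Levels are given as CPM, reads scaled to a common total of repeat-assigned reads, after TMM scaling, which sets a trimmed mean of the log ratios over loci equal between libraries and leaves the median locus free to differ. The scaling factors were 1.26 to 1.33 in ORF1p RIP and 0.704 to 0.748 in ORF2p RIP, against 0.990 to 1.02 in mock IP, so ORF2p levels are raised and ORF1p levels lowered relative to plain totals. Comparisons used edgeR's quasi-likelihood test on 379871 loci with Benjamini-Hochberg adjustment over all of them, and a locus counted as called with an adjusted p under 0.05 together with a change of 2-fold or more. Of the 1457 copies, 1450 had enough reads to be tested, and the other 7 held 31.6 to 104.7 reads over all libraries. Replicate 3 of ORF1p RIP stood apart from the other 3 libraries of its group, and results that rest on it are given with and without it.

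The table holds fractional values, read here as reads split between loci. Only 0.964% of the copies' values above 0 were whole numbers, against 78.2% over all loci, and 1242 copies had no whole value in any library. A value for a single copy is therefore an estimate, copies are not independent of one another, and counts of copies describe the subfamily rather than separate events. The sources used here do not say whether counting used strand, so RNA of a copy and RNA of a gene transcribed across it cannot be told apart.

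The lengths fall into 2 peaks, both at those of nearly complete elements. The copies ran from 5908 to 8308 bases with a median of 6075, and 622 were 6000 to 6059 bases long, 74 were 6060 to 6119 and 613 were 6120 to 6179, while 41 were longer than 6200. A limit of 6100 bases separated 745 shorter copies from 712 longer ones. The divergence value in the locus name, whose unit the sources used here do not give, ran from 7 to 159 with a median of 36. Its median was 31 in the shorter copies and 41 in the longer ones. The copies lay on every chromosome, with most on X (151), and were split almost evenly by strand, 752 on the plus and 705 on the minus strand.

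Full-length L1PA3 RNA was recovered most with ORF2p. The summed level of the 1457 copies was 34269, 32614, 30993 and 31778 CPM in ORF2p RIP, 6307, 6075, 15137 and 6832 CPM in ORF1p RIP, and 4474, 4287 and 3857 CPM in mock IP. In total RNA it was 3087 and 2684 CPM in the libraries with prefix b and 7583, 4796, 4482 and 5716 CPM in those with prefix bl. All 4 ORF2p libraries lay above all other libraries, all 4 ORF1p libraries lay above the 3 mock libraries, and replicate 3 held more than the other ORF1p libraries. The means were 32414 ± 1403 CPM in ORF2p RIP (SD, n = 4), 8588 ± 4377 CPM in ORF1p RIP (SD, n = 4), 4206 ± 317 CPM in mock IP (SD, n = 3) and 4725 ± 1792 CPM in total RNA (SD, n = 6).

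The ratio of means was 7.71 for ORF2p RIP over mock IP, 2.04 for ORF1p RIP over mock IP and 3.77 for ORF2p RIP over ORF1p RIP. Without replicate 3 the ORF1p mean was 6405 CPM and its ratio over mock IP was 1.52. As a share of repeat-assigned reads, which needs no scaling factor, the copies took 2.24% to 2.44% in ORF2p RIP, 0.810% to 1.91% in ORF1p RIP, 0.393% to 0.443% in mock IP and 0.298% to 0.726% in total RNA. For the level in total RNA, measured in bulk, more cells with L1PA3 RNA and more RNA per cell cannot be told apart.

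**Figure D1:**
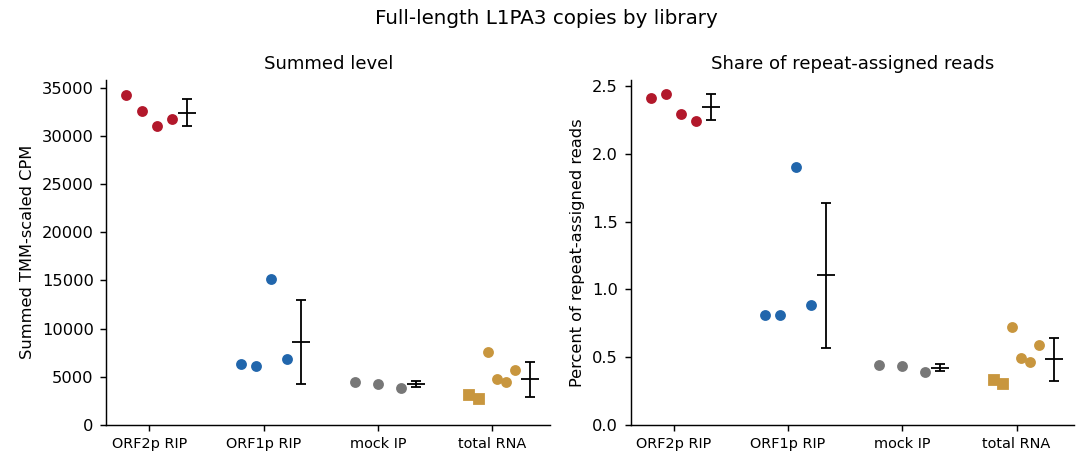
Summed level of the 1457 full-length L1PA3 copies in each library, as TMM-scaled CPM (left) and as percent of repeat-assigned reads (right), with 1 point per library and the mean ± SD beside each group; squares are the total RNA libraries with prefix b. The 4 ORF2p RIP libraries sit between 30993 and 34269 CPM, above all others, and 1 ORF1p RIP library, at 15137 CPM, sits above the other 3.

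The full-length copies took a larger share of L1PA3 reads in ORF2p RIP than in the other groups. Of all reads assigned to L1PA3 loci, full-length copies held 66.3% ± 1.52 in ORF2p RIP (SD, n = 4), 55.9% ± 2.61 in ORF1p RIP (SD, n = 4), 50.4% ± 1.59 in mock IP (SD, n = 3) and 56.6% ± 2.09 in total RNA (SD, n = 6). The lowest ORF2p library, at 64.6%, lay above the highest total RNA library, at 60.3%, and the ORF1p and total RNA libraries overlapped.

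Signal was spread over many copies in ORF1p RIP and was most uneven in ORF2p RIP. The copy with the highest level held 10% of the summed level in ORF2p RIP, 1.40% in ORF1p RIP, 3.23% in mock IP and 3.6% in total RNA. It took 131 copies to reach 50% of the summed level in ORF2p RIP, 239 in ORF1p RIP, 164 in mock IP and 159 in total RNA. The median copy stood at 9.82 CPM in ORF2p RIP, 3.6 CPM in ORF1p RIP, 1.44 CPM in mock IP and 1.53 CPM in total RNA, and 719 copies reached 10 CPM in ORF2p RIP, against 221 in ORF1p RIP, 69 in mock IP and 84 in total RNA.

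ORF2p RIP over mock IP asks which copies' RNA came down with ORF2p beyond the pulldown background. Of the 1450 copies tested, 1308 were called higher (90.2%), against a background of 9.26% of all loci tested. None was called lower by edgeR, against 5.81% of all loci, and none was lower at an unadjusted p under 0.05 or by DESeq2. The median log2 change of the copies was 3.02, against -0.15 over all loci. For 1383 copies all 4 ORF2p libraries lay above all 3 mock libraries. This count was not made over all loci, so it has no background to be read against and only describes the copies. Plain library totals in place of TMM moved the median of all loci to -0.62 and that of the copies to 2.55. The copies stood 3.18 above the median locus with TMM and 3.17 with library totals. A change of scaling shifts all loci by nearly the same amount, so this distance could hardly change and is no check of the scaling.

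ORF1p RIP over mock IP gave a wider and smaller shift. Of the 1450 copies, 766 were called higher (52.8%), against 15.2% of all loci, and 41 were called lower (2.83%), against 32% of all loci. The median log2 change was 1.40, against -0.51 over all loci, and the middle 90% of copies ran from -0.60 to 2.94. Leaving out ORF1p replicate 3 gave 502 higher (34.6%, against 14.6% of all loci) and 64 lower (4.41%, against 29.9%) with a median of 0.95. Leaving out mock replicate 3 gave 489 higher (33.7%, against 10.7%). The count of lower copies was also 24 without ORF1p replicate 2 (1.66%, against 30.2% of all loci), 27 without mock replicate 1 (1.86%, against 29.3%), and 21 with library totals (1.45%, against 27.8%).

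**Figure D2:**
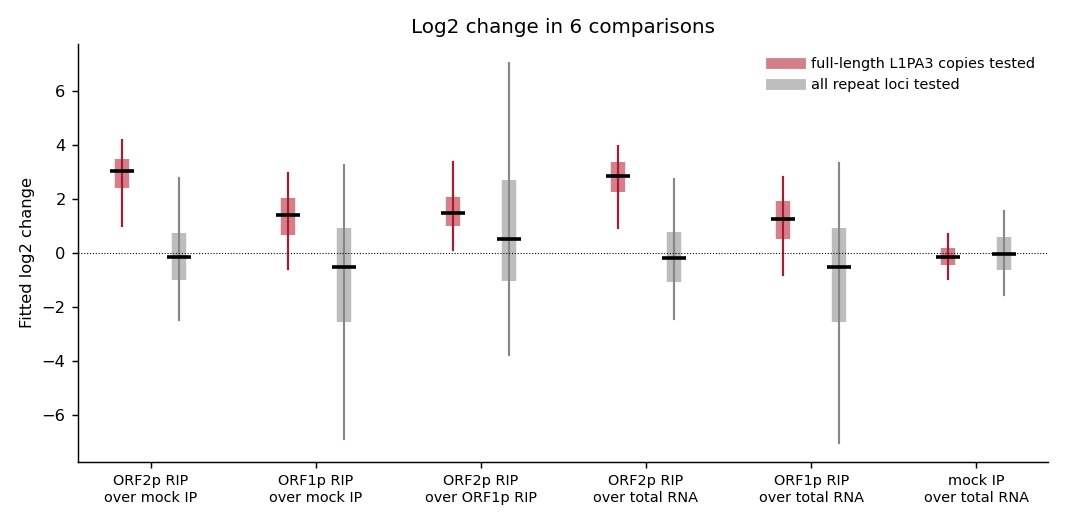
Fitted log2 change of the full-length L1PA3 copies tested (red) and of all repeat loci tested (grey) in 6 comparisons; thin lines span the 5th to 95th percentile, thick bars the 25th to 75th, and black marks the median. The copies' median lies at 3.02 for ORF2p RIP over mock IP and at 1.40 for ORF1p RIP over mock IP, against -0.15 and -0.51 for all loci.

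Between the subfamilies, the ORF1p and ORF2p shifts were both ordered by their age, and the ORF2p shift varied less. For ORF1p RIP over mock IP the median log2 change was 3.12 in full-length L1HS (309 copies) and 1.81 in full-length L1PA2 (1030 of 1031 copies tested). It was 1.40 in full-length L1PA3 and 0.73 in full-length L1PA4 (1194 of 1268 copies tested). For ORF2p RIP over mock IP it was 3.55 in L1HS, 3.30 in L1PA2, 3.02 in L1PA3 and 2.46 in L1PA4. The L1PA3 loci of 5900 bases or less, of which 2908 of 8904 could be tested, had medians of 2.46 for ORF2p and 0.94 for ORF1p over mock IP. The filter on reads can keep a locus that is high in 1 group alone. Loci kept through a pulldown may therefore raise the medians of this set, most of which was not tested. These medians share the mock libraries, and reads can be split between copies of different sets. Differences between the sets were described and not tested.

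ORF2p RIP over ORF1p RIP sets the proteins against each other. Of the 1450 copies, 985 were called higher with ORF2p (67.9%), against 34.5% of all loci, and 13 were called lower (0.897%), against 17.6% of all loci. The median log2 change of the copies was 1.49, and that of all loci was itself 0.53. With library totals in place of TMM, 409 copies were higher (28.2%), against 25.6% of all loci, and 44 were lower (3.03%), against 29.4% of all loci, so the share called higher was near the background under that scaling. The copies' median was then 0.65 and that of all loci -0.30. The copies stood 0.95 above the median locus with either scaling, a distance that a change of scaling can hardly move. Over all loci, 66.2% of the calls were higher with TMM and 46.6% with library totals. Without ORF1p replicate 3, 1195 copies were higher (82.4%, against 33% of all loci) and 10 lower (0.690%, against 17.5%), and the copies stood 1.49 above the median locus. Full-length L1HS, the youngest set, had a median of 0.39 in this comparison with 78 copies higher and 34 lower, while L1PA2 stood at 1.34, L1PA4 at 1.62 and the shorter L1PA3 loci at 1.5.

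**Figure D3:**
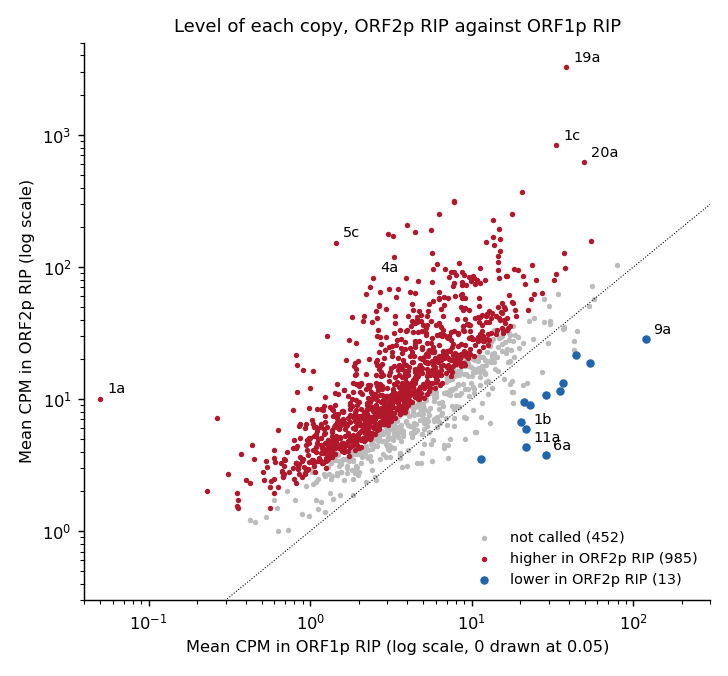
Mean CPM of each tested full-length L1PA3 copy in ORF2p RIP (vertical, log scale) against ORF1p RIP (horizontal, log scale, with a level of 0 drawn at 0.05), coloured by the call of ORF2p RIP over ORF1p RIP; the dotted line marks equal levels. Most copies lie above the line, 19a, 1c and 20a are the highest in ORF2p RIP, and the 13 copies called lower, among them 6a, 9a, 11a and 1b, lie below it.

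Single copies are named by chromosome and a letter, with hg38 coordinates counted from 1, and RefSeq gene spans (GRCh38.p14) give their surroundings. The spans do not resolve exons, so whether a copy within a gene is exonic or intronic was not analysed here. The 8 copies with the highest mean over the groups come first, a rank that their ORF2p level largely sets. They were all called higher in ORF2p RIP over mock IP, as a description of the copies so chosen, and none of them was called higher in ORF1p RIP over mock IP.

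Copy 19a (chr19:20807725-20813827, plus strand) lay outside gene spans, between the pseudogenes BNIP3P24 and LOC100418986, and had the highest level of all copies. It stood at 3495, 3284, 3059 and 3179 CPM in ORF2p RIP, 28.4, 31.8, 56.0 and 37.1 CPM in ORF1p RIP, and 148, 147 and 113 CPM in mock IP, and ran from 55.6 through a median of 178 to 316 CPM in total RNA. The ORF2p libraries were far above all others, and all 4 ORF1p libraries were below all 3 mock libraries. The log2 change was 4.58 ± 0.51 (SE) for ORF2p RIP over mock IP (edgeR, adjusted p = 2.9e-07) and -1.83 ± 0.43 for ORF1p RIP over mock IP (edgeR, adjusted p = 0.00078). Repeats other than LINE-1 within 5 kb of it held 218 CPM in ORF2p RIP, 6.59 CPM in ORF1p RIP and 19.4 CPM in mock IP, and their part in the copy's values was not tested.

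Copy 1c (chr1:121574290-121580421, plus strand), near the pseudogene EMBP1, followed in level. It stood at 918, 846, 782 and 804 CPM in ORF2p RIP, 23.6, 21.8, 62.2 and 25.5 CPM in ORF1p RIP, and 39.8, 37.8 and 26.3 CPM in mock IP. Its log2 change was 4.59 ± 0.54 (SE) for ORF2p RIP over mock IP (edgeR, adjusted p = 5.5e-07). The ORF1p and mock libraries overlapped, with a log2 change of -0.06 ± 0.44 that turned positive under several alternatives. Copy 20a (chr20:53455563-53461566, minus strand) lay within the spans of TSHZ2, a zinc finger homeobox gene, and of TSHZ2-AS1. It stood at 684, 611, 590.0 and 605 CPM in ORF2p RIP, 31.8, 40.4, 85.6 and 39.5 CPM in ORF1p RIP, and 45.6, 42.6 and 38.3 CPM in mock IP. Here too the ORF2p libraries were highest and the ORF1p and mock libraries overlapped.

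Copy 7b (chr7:31619617-31625782, plus strand), within the spans of ITPRID1 and of PDE1C, a cyclic nucleotide phosphodiesterase gene, had opposite shifts with the 2 proteins. It stood at 272, 256, 237 and 248 CPM in ORF2p RIP, 4.89, 6.10, 10.1 and 4.17 CPM in ORF1p RIP, and 42.3, 34.5 and 32.3 CPM in mock IP, with no overlap between any of these groups. The log2 change was 2.80 ± 0.48 (SE) for ORF2p RIP over mock IP (edgeR, adjusted p = 0.00010) and -2.53 ± 0.44 for ORF1p RIP over mock IP (edgeR, adjusted p = 3.0e-05). Flanking repeats held 13.4 CPM in ORF2p RIP, 0.0442 CPM in ORF1p RIP and 17.6 CPM in mock IP. The remaining 4 of the 8, copies Xc, 15c, 5b and 1d, averaged 254 to 369 CPM in ORF2p RIP, 7.72 to 20.5 CPM in ORF1p RIP and 15.1 to 17 CPM in mock IP. Of these 4, only 15c was called in ORF1p RIP over mock IP, as lower (edgeR, adjusted p = 0.042), with libraries that overlapped and a call that was lost in 8 alternative fits. Copy 5b was not called (edgeR, adjusted p = 0.057) but was called lower in 3 alternative fits, with the replicate block, with a filter at 10 reads in all and without ORF1p replicate 3.

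The copies with the largest fold change in ORF1p RIP over mock IP come next, and a rank by fold favours low values in mock IP. Copy 6a (chr6:12549193-12555347, plus strand), outside gene spans between RPL15P3 and LINC02530, stood at 3.42, 3.73, 3.86 and 4.06 CPM in ORF2p RIP, 20.6, 19.6, 51 and 23.3 CPM in ORF1p RIP, and 0.140, 0.462 and 0.188 CPM in mock IP. In total RNA it ran from 0.158 to 0.516 CPM. The 3 groups did not overlap, and its flanking repeats held at most 0.0700 CPM in any group mean. Its log2 change was 6.82 ± 0.60 (SE) for ORF1p RIP over mock IP (edgeR, adjusted p = 2.5e-10), where mock IP held 11.9 reads in all, and it was 6.38 without ORF1p replicate 3 and 7.60 without mock replicate 2. It was also lower with ORF2p than with ORF1p, by a log2 change of -2.92 ± 0.41 (edgeR, adjusted p = 1.1e-06).

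Copies 10a, 15b and 11a followed with log2 changes of 4.32, 4.27 and 4.27 for ORF1p RIP over mock IP (edgeR, adjusted p = 3.6e-08, 5.7e-07 and 6.1e-08). Their means in ORF2p RIP were 9.41, 27.6 and 4.30 CPM. Copy 10a (chr10:5222680-5228851, plus strand) lay 3731 bases from AKR1C4, an aldo-keto reductase gene, and stood at 16.2, 17.8, 19.1 and 18.9 CPM in ORF1p RIP, against 1.11, 0.615 and 0.949 CPM in mock IP. Copy 15b (chr15:37303283-37309430, minus strand) stood at 35.9, 34.0, 62.9 and 39.9 CPM in ORF1p RIP, against 1.73, 2.56 and 2.38 CPM in mock IP. In both, the ORF1p libraries lay more than an order of magnitude above the mock mean. Copy 11a (chr11:107372763-107378780, plus strand), antisense within CWF19L2, stood at 17.4, 11.7, 35.9 and 21.7 CPM in ORF1p RIP, against 1.25, 1.44 and 0.596 CPM in mock IP.

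Copy 9a (chr9:92214409-92220428, plus strand), antisense within IARS1, the isoleucyl-tRNA synthetase gene, had the highest ORF1p level of all copies. It stood at 31.1, 27.4, 29.5 and 26.1 CPM in ORF2p RIP, 104, 92.3, 157 and 128 CPM in ORF1p RIP, and 14.1, 13.6 and 11.2 CPM in mock IP. Every ORF1p library was above every ORF2p library, and every ORF2p library was above every mock library. It was lower with ORF2p than with ORF1p with a fitted difference of -2.08 ± 0.32 on the log2 scale (SE; edgeR, adjusted p = 3.2e-06). Its flanking repeats held 12.9 CPM in ORF2p RIP, 17 CPM in ORF1p RIP and 16.7 CPM in mock IP.

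The 13 copies lower with ORF2p than with ORF1p had log2 changes between -2.92 and -1.04 and a median level of 9.43 CPM in ORF2p RIP and 28.6 CPM in ORF1p RIP. Of them, 7 lay in the sense direction within a gene span, 3 antisense, 2 within spans of unknown strand and 1 outside spans, against 132 sense, 324 antisense, 164 of unknown strand and 790 outside spans among the 1457 copies. Copy 1b (chr1:108161797-108167809, minus strand), in the sense direction within SLC25A24, a mitochondrial carrier gene, was 1 of them. It stood at 6.50, 5.85, 4.02 and 7.15 CPM in ORF2p RIP, against 17.7, 19.8, 30.9 and 18.6 CPM in ORF1p RIP, with a fitted difference of -1.89 ± 0.50 on the log2 scale (SE; edgeR, adjusted p = 0.0022). Flanking repeats were lower in ORF2p RIP than in ORF1p RIP at 13 of the 13 copies, against 365 of the 1450 tested, with 816 higher, and the part of transcription across the copies was not tested.

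Among copies lower in ORF1p RIP than in mock IP, several were nearly absent with ORF1p. Copy 1a (chr1:79888612-79894731, minus strand), outside gene spans, had no read in any of the 4 ORF1p libraries. It stood at 7.46, 13.3, 9.46 and 9.91 CPM in ORF2p RIP and at 1.32, 0.905 and 2.00 CPM in mock IP. Against a floor of 3 reads over the ORF1p group, it was at least 20.1-fold lower with ORF1p than in mock IP, and ORF2p RIP was at least 143-fold higher than ORF1p RIP. Copy 5c (chr5:153300444-153306573, minus strand), outside gene spans, stood at 159.7, 156, 148 and 146 CPM in ORF2p RIP, 1.58, 0.932, 1.51 and 1.72 CPM in ORF1p RIP, and 49.3, 55.7 and 44.3 CPM in mock IP. Its log2 change was 1.62 ± 0.46 (SE) for ORF2p RIP over mock IP (edgeR, adjusted p = 0.016) and -5.07 ± 0.51 for ORF1p RIP over mock IP (edgeR, adjusted p = 3.6e-09).

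Copy 5a (chr5:106898993-106905178, minus strand), within the long noncoding RNA gene LINC01950, stood at 16.6, 17.2, 15.3 and 16.9 CPM in ORF2p RIP, 1.25, 0.287, 1.68 and 0.380 CPM in ORF1p RIP, and 12.2, 17.3 and 12.3 CPM in mock IP. Copy 7a (chr7:31501203-31507228, minus strand), 6862 bases from ITPRID1, stood at 21.7, 22.6, 15.1 and 18.8 CPM in ORF2p RIP, 1.14, 1.72, 3.53 and 1.47 CPM in ORF1p RIP, and 31.6, 26.4 and 31.4 CPM in mock IP. In both, every ORF1p library was below every mock library, while ORF2p RIP over mock IP was not called, with log2 changes of 0.24 ± 0.42 and -0.60 ± 0.43 (SE). Copy 3a (chr3:112724117-112730267, plus strand) stood at 199, 174, 157 and 181 CPM in ORF2p RIP, against 4.26, 1.24, 4.49 and 2.17 CPM in ORF1p RIP, and its log2 change was 5.86 ± 0.51 (SE; edgeR, adjusted p = 1.54e-10).

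Copies lower in ORF1p RIP had flanking repeats that were lower as well. Copies higher in ORF1p RIP had flanks with a median near the floor, which were not mostly higher. Over repeats other than LINE-1 within 5 kb of each copy, the 41 copies lower in ORF1p RIP had a median flanking level of 0.201 CPM in ORF1p RIP, against 7.53 CPM in mock IP. In mock IP, 37 of the 41 (90.2%) had flanks at 1 CPM or more, against 124 of the 766 higher copies (16.2%) and 382 of the 1450 tested (26.3%). A call as lower needs reads in mock IP, and the calls and the flanks use the same mock libraries. The median mock level of the copies themselves was 11.3 CPM in the 41 and 1.09 CPM in the 766. How far the call itself sets the difference in flanks was not tested. The flanks themselves were lower in ORF1p RIP than in mock IP at 41 of the 41 copies, and at 830 of the 1450 tested, with 381 higher. At the 766 copies called higher, the flanks were lower in ORF1p RIP at 361, higher at 251 and equal at 154. Their medians were 0.0213 CPM in ORF1p RIP and 0.0674 CPM in mock IP. These medians lie near the floor, so the direction at many of these flanks rests on few reads. With library totals or factors of subfamily sums, the flanks were lower at 40 of the 41. The 41 copies thus lay largely in stretches where neighbouring repeats were also covered in mock IP and also lower in ORF1p RIP, and the part of transcripts that run through them was not tested. Flanks of copies 5c, 5a, 7a and 3a, named above, held 0, 0.294, 0.364 and 0.983 CPM in ORF1p RIP, against 15.4, 7.53, 75.2 and 53.4 CPM in mock IP.

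For ORF2p RIP over mock IP, covered flanks were more frequent among the copies that were not called. Of these 142 copies, 110 (77.5%) had flanks at 1 CPM or more in mock IP, against 272 of the 1308 copies called higher (20.8%). Here too the calls and the flanks use the same mock libraries. The median flanking level of the 142 was 2.31 CPM in ORF2p RIP and 2.86 CPM in mock IP. Summed over the copies, the flanks held 2976 CPM in ORF2p RIP, 1445 CPM in ORF1p RIP, 2646 CPM in mock IP and 2615 CPM in total RNA. The copies themselves held 7.71 times the mock level in ORF2p RIP.

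**Figure D4:**
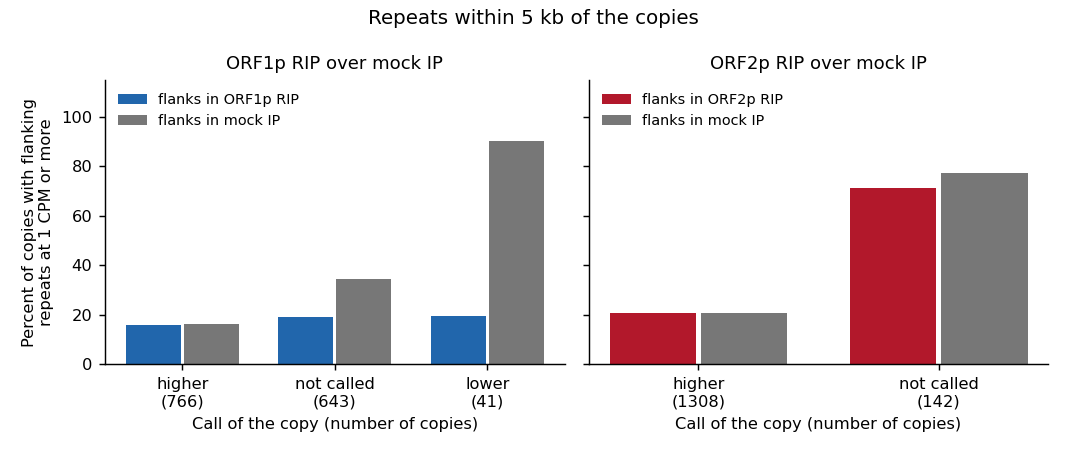
Percent of full-length L1PA3 copies whose flanking repeats (other than LINE-1, within 5 kb) reached 1 CPM, by the call of the copy in ORF1p RIP over mock IP (left) and in ORF2p RIP over mock IP (right). Bars show flanks in the pulldown beside flanks in mock IP, and 90.2% of the 41 copies lower in ORF1p RIP had such flanks in mock IP, against 19.5% in ORF1p RIP. The calls use the same mock libraries as the flanks.

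Among the copies with the largest fold change in ORF2p RIP over mock IP, a rank that again favours low mock values, copy 4a (chr4:54528935-54535093, minus strand), outside gene spans, stood at 13.6, 87.6, 145 and 86.1 CPM in ORF2p RIP, against 1.01, 1.2 and 0.847 CPM in mock IP, and its log2 change was 6.33 ± 0.82 (SE; edgeR, adjusted p = 2.48e-06). The ORF2p libraries of this copy differed widely from one another, and the lowest still lay above every mock library. Copy Xb (chrX:100255487-100261633, plus strand), between RPSAP8 and the protocadherin gene PCDH19, stood at 13.8, 22.9, 25.9 and 16.6 CPM in ORF2p RIP, against 0.657, 0.356 and 0.257 CPM in mock IP. Copy Xa (chrX:70937959-70944111, minus strand), near the amino acid transporter gene SLC7A3, had 163 reads in ORF2p RIP and 3.06 in mock IP, a depth-scaled ratio of 66.7 with a 95% counting interval of 22.9 to 333. Copy 15a (chr15:17013609-17019737, plus strand) had 44.8 reads in ORF2p RIP and 1.19 in mock IP, a ratio of 47.2 with an interval of 9.60 to 2273. In both, all mock reads came from mock replicate 2, these intervals cover counting error only, and the fitted log2 change ran from 5.25 to 8.93 for Xa and from 4.70 to 7.03 for 15a with 1 library left out, highest without that library.

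Set against total RNA, 93.7% of the copies tested were called higher with ORF2p and 55.4% with ORF1p. The summed levels of ORF1p RIP and total RNA overlapped, since total RNA replicate 3 (7583 CPM) lay above ORF1p replicates 1, 2 and 4 (6307, 6075 and 6832 CPM). For ORF2p RIP over total RNA, 1359 of 1450 copies were higher, against 13.7% of all loci, and the median log2 change was 2.86, against -0.19 over all loci. No copy was lower by edgeR, at an unadjusted p under 0.05 or by DESeq2, against 11.6% of all loci called lower by edgeR. For ORF1p RIP over total RNA, 804 copies were higher, against 19.1% of all loci, 56 were lower, against 35.3%, and the median was 1.25, against -0.52 over all loci. Without ORF1p replicate 3, 555 were higher (38.3%, against 18.7% of all loci) and 91 lower (6.28%, against 33.1%). These comparisons share their pulldown libraries with those over mock IP and are not separate evidence.

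The size of these changes differed with the total RNA prefix. With the 2 libraries of prefix b alone the median was 3.82 for ORF2p RIP and 2.13 for ORF1p RIP, and with the 4 of prefix bl alone it was 2.59 and 1.02. Among the copies that the naming rule took from these comparisons, copy 16a (chr16:46535348-46541495, plus strand), within the pseudogene ANKRD26P1, stood at 15.4, 14, 27.1 and 14.3 CPM in ORF1p RIP and ran from 0.170 through a median of 0.759 to 0.915 CPM in total RNA, and its log2 change was 4.71 ± 0.51 (SE; edgeR, adjusted p = 7.75e-09). Copy 1e (chr1:159730455-159736575, plus strand), 15866 bases from CRP, the C-reactive protein gene, stood at 13.5, 25, 21.9 and 30.1 CPM in ORF2p RIP and ran from 0.30 through 0.640 to 1.17 CPM in total RNA, and its log2 change was 5.05 ± 0.41 (SE; edgeR, adjusted p = 1.85e-10). In both copies every pulldown library was above every total RNA library. A copy on chromosome 8 and one on the Y chromosome had log2 changes of 5.17 ± 0.51 and 4.81 ± 0.43 (SE) for ORF2p RIP over total RNA.

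Few copies were called between mock IP and all 6 total RNA libraries, and more were called against either prefix alone. Of the 1450 copies, 1 was called higher in mock IP, against 0.818% of all loci, and none lower, against 0.198%. By edgeR 34 were higher and 37 lower at an unadjusted p under 0.05. DESeq2 called 4 higher (0.276%, against 2.05% of all loci) and 1 lower (0.069%, against 1.66%). The median log2 change was -0.15, against -0.03 over all loci. Against prefix b alone 18 copies were higher in mock IP (1.24%, against 0.230% of all loci) and none lower, and against prefix bl alone 35 were higher (2.42%, against 12.3%) and 72 lower (4.97%, against 9.04%). The 1 copy, named here after its values were seen, lay at chr4:73550630-73556814 on the plus strand and stood at 0.255, 8.69 and 0.806 CPM in mock IP, against at most 0.855 CPM in total RNA, so its difference came from 1 mock library. The summed level in mock IP was 1.46 times the mean of the total RNA libraries with prefix b and 0.745 times that of the libraries with prefix bl.

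The 2 length classes were recovered alike in direction, with higher levels in the shorter copies. A shorter copy stood at a median of 15.8 CPM in ORF2p RIP, 5.09 CPM in ORF1p RIP, 1.98 CPM in mock IP and 2.19 CPM in total RNA, and a longer one at 6.45, 2.37, 0.954 and 0.993 CPM in the same order of groups. The median log2 change for ORF2p RIP over mock IP was 3.15 in the shorter and 2.84 in the longer copies. Of the tested copies, 703 of 745 and 605 of 705 were called higher (94.4% and 85.8%, against 9.26% of all loci). For ORF1p RIP over mock IP the median was 1.51 and 1.30, with 440 and 326 copies higher (59.1% and 46.2%, against 15.2% of all loci). There 15 and 26 copies were lower (2.01% and 3.69%, against 32%). For ORF2p RIP over ORF1p RIP the median was 1.49 and 1.48. Reads in copies of 6100 bases or more made up 38% of the members' reads in ORF2p RIP, 35.2% in ORF1p RIP, 43.1% in mock IP and 42.2% in total RNA. The difference between the classes was not tested, and length and divergence moved together, since 477 of the shorter and 9 of the longer copies were among the third of copies with the lowest divergence.

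**Figure D5:**
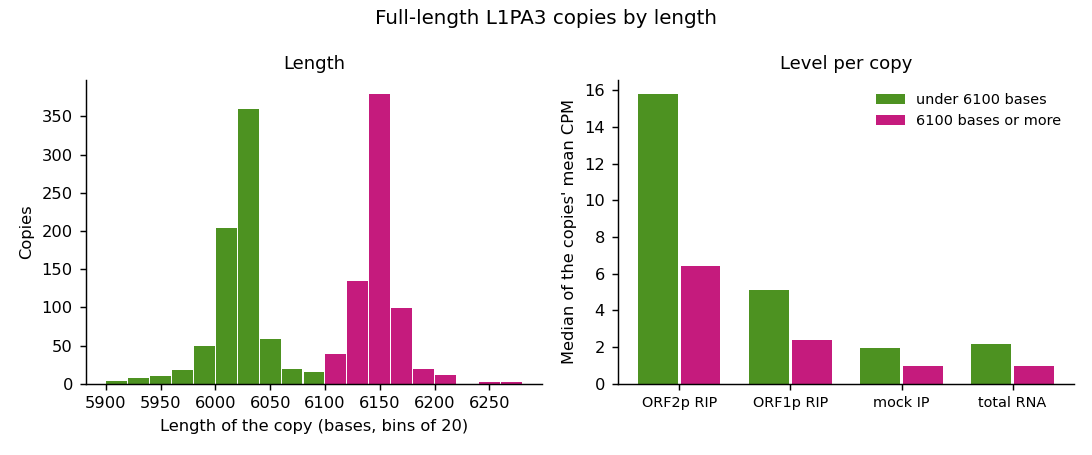
Lengths of the full-length L1PA3 copies in bins of 20 bases (left, with 25 copies of 6300 bases or more not drawn) and the median over copies of the group mean CPM in each group (right), for copies under 6100 bases (green) and of 6100 bases or more (pink). The lengths form 2 peaks, and the median shorter copy stood at 15.8 CPM in ORF2p RIP, against 6.45 CPM for the longer one.

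Position relative to genes went with how often a copy was called higher with ORF2p, and the shares called higher with ORF1p differed less. Copies outside gene spans were called higher in ORF2p RIP over mock IP in 95.5% of those tested, against 9.26% of all loci. The share was 88.6% for copies antisense to a gene span and 74.2% for copies in the sense direction. The median log2 changes were 3.12, 2.87 and 2.71 in the same order. For ORF1p RIP over mock IP the shares called higher were 55.5%, 50.9% and 51.5%, against 15.2% of all loci. The shares called lower were 2.17%, 1.54% and 4.55%, against 32% of all loci. Copies within spans of unknown strand and within several spans were called higher with ORF2p in 82.8% and 83.0%, and lower with ORF1p in 5.52% and 8.51%, of 163 and 47 tested. In mock IP the median sense copy stood at 2.66 CPM and the median antisense copy at 1.57 CPM, against 1.2 CPM outside spans. By strand of the genome, 88.9% of plus and 91.6% of minus copies were called higher in ORF2p RIP over mock IP. These are shares of copies that share reads, and no test was run on them.

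At the length limit, the 2 shortest copies included were 5919 bases (chr16:34018674-34024592) and 5908 bases (chr5:82866881-82872788), with 3.48 and 18.3 CPM in ORF2p RIP, 1.29 and 7.97 CPM in ORF1p RIP, and 0.0879 and 4.48 CPM in mock IP. The 2 longest L1PA3 loci left out were 5894 and 5886 bases, with 42.0 and 4.57 CPM in ORF2p RIP, 25.4 and 1.05 CPM in ORF1p RIP, and 3.81 and 0.491 CPM in mock IP.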

How the data were processed

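RIP-seq and total RNA of N2102Ep cells were compared over 17 libraries grouped by the labels. The authors deposited 1 table of estimated counts per repeat locus, not scaled to a total, with fractions where reads were shared. The unit was read from the values. STAR and hg38 are named in the submitters' processing notes, without a version, and the sources used here do not name the counting program. Of 60 columns of values, 43 matched no label here and were not used.

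Starts in the table count from 0 and were moved by 1 base. Counts were rounded, loci were kept with edgeR's filterByExpr (min.count 10), scaled with TMM and fitted over all 17 libraries with 1 term per group by glmQLFit and glmQLFTest (edgeR 4.0.16, R 4.3.3), giving 6 comparisons with Benjamini-Hochberg adjustment over 379871 loci. The SE is the log2 change over the square root of F. The steps were tested on simulated data with a fixed dispersion, calling ORF2p RIP over mock IP on the adjusted p alone. Of 50 loci each, 2 of those raised 2-fold and 31 of those raised 4-fold were called in the right direction. Of those set to 0.5 and 0.25 of their level, 3 and 21 of 50 were called, so many changes of this size were missed. Alternatives were library totals, DESeq2 1.42.0, a filter at 10 reads in all, the replicate number as a block, each total RNA prefix alone, a length limit of 6000 bases, and each library left out. The leave-one-out fits reused the loci and dispersion trend of the full fit. TMM factors of subfamily sums and a sum without the copy with the highest level were chosen after seeing the data. No 2 libraries of a group agreed within sampling noise, with a chi-square of at least 1.61 per locus.

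The members and lists were chosen with earlier results of these data known. Named copies are the 8 with the highest mean over the 4 groups and, in each comparison, the 4 higher and 4 lower with the largest change among those called that reached 1 CPM and whose libraries did not overlap, plus 2 on each side of the length limit. Flanks are repeats other than LINE-1 within 5 kb. With no genome at hand, no sequence of the copies is shown.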

Additional observations from a re-analysis of the deposited data

Results flagged for a closer look

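In a group of 4 or 6 libraries, a library was singled out where its gap to the nearest other library, as a share of the group's range, passed Dixon's 95% limit. Of 89 groups examined, 15 were singled out. Chance gives about 1 in 20 for independent groups, and these are not independent, since they share libraries and reads. ORF1p RIP replicate 3 was the highest library in 9 of them. Its summed level of 15137 CPM stood against 6075 to 6832 CPM in the other 3 (gap 0.916 of the range), and its full-length share of L1PA3 reads of 59.8% against 54.2% to 55.1% (0.835). It was likewise the highest ORF1p library for copies 1c (0.910), 20a (0.839), Xc (0.849), 6a (0.883), 1b (0.840), 16a (0.893) and 1e (0.897).

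In ORF2p RIP, replicate 1 was highest for copies Xc, at 412 CPM (0.909), and 10a, at 15.3 CPM (0.842), and replicate 2 for copy 11a, at 5.64 CPM (0.870). In total RNA, replicate 5 was highest for copies 10a, at 1.27 CPM (0.632), and 15b, at 9.70 CPM (0.733), and replicate 3 for copy 1a, at 2.58 CPM (0.842).

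The summed level in mock IP was above that of both total RNA libraries with prefix b, with a ratio of means of 1.46, and that of all 4 libraries with prefix bl was above the mock libraries, with a ratio of 0.745. The difference between the prefixes was not tested, and what the prefixes stand for is not given in the labels.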

How the results depend on the processing

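Of the 1234 values of named copies under alternatives, 1212 kept their direction and call, 8 lost a call, 3 gained one and 11 changed sign, none of them a call in both settings. Copy 1c for ORF1p RIP over mock IP moved to 0.29 with library totals, 0.47 with factors of subfamily sums and 0.028 with DESeq2, and ran from -0.55 to 0.10 with libraries left out. Copies 1d (-0.047 to 0.27), 20a (-0.18 to 0.39) and Xc (-0.085 to 0.50) turned negative without ORF1p replicate 3. The call of copy 15c as lower with ORF1p was lost in all 8 of the fits that lost one, and the 3 gained calls were those of copy 5b as lower with ORF1p.

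With library totals and with factors of subfamily sums, copies lower in ORF1p RIP over mock IP numbered 21 and 19 (1.45% and 1.31%, against 27.8% and 27.2% of all loci). In the same order, copies higher in ORF2p RIP over ORF1p RIP numbered 409 and 463 (28.2% and 31.9%, against 25.6% and 27.7%), near the background under both. Those lower numbered 44 and 36 (3.03% and 2.48%, against 29.4% and 26.1%). Factors of subfamily sums gave 29 lower in ORF1p RIP over total RNA (2%, against 28.9% of all loci). Library totals gave 2 lower in ORF2p RIP over total RNA (0.138%, against 24.5%). The summed level in ORF2p RIP was 23488 CPM with library totals, 28001 CPM with factors of subfamily sums, 30879.7 CPM above 6000 bases and 29159 CPM without copy 19a. Copies lower in ORF2p RIP over total RNA numbered 1 at 10 reads in all, 1 with prefix b alone and 3 with prefix bl alone, against 4.73%, 6.77% and 16.5% of all loci. For mock IP over total RNA, DESeq2 gave 4 higher and 1 lower (against 2.05% and 1.66% of all loci), and the filter at 10 reads 2 and 3 (against 0.494% and 0.26%). Prefix b alone gave 18 higher (against 0.23%), and prefix bl alone 35 higher and 72 lower (against 12.3% and 9.04%). The cause of these shifts was not tested.

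With 1 library left out, ORF1p RIP over mock IP gave 489 to 799 higher (502 without ORF1p replicate 3, 489 without mock replicate 3) and 24 to 64 lower (24 without ORF1p replicate 2, 27 without mock replicate 1, 64 without ORF1p replicate 3). ORF1p RIP over total RNA gave 42 to 91 lower, the highest without ORF1p replicate 3. ORF2p RIP over total RNA gave 0 to 1 lower, with 1 without total RNA replicate 1 or 2 (against 12.3% and 12.2% of all loci). Mock IP over total RNA gave 0 to 1 higher, with 0 without mock replicate 2 or total RNA replicate 4, 5 or 6. It gave 0 to 5 lower, with 5 without total RNA replicate 1, 3 without replicate 2 and 1 without ORF1p replicate 3 (against 2.16%, 1.79% and 0.331% of all loci).

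Same-numbered libraries of different groups had correlations of their deviations of -0.16 to 0.26, with 5 of 21 over 0.1, against 11 of 85 for different numbers. Not every pair passed 0.1, and the numbers were not taken to pair the libraries. They are those of the sample titles, and the total RNA sample names carry other numbers. All 5 same-numbered values over 0.1 involved total RNA, and those without total RNA reached at most 0.037. ORF1p RIP replicate 3 correlated at 0.256, 0.202, 0.184 and 0.197 with the 4 total RNA libraries of prefix bl, and at -0.259 and -0.283 with those of prefix b. Pairing by number and the prefix cannot be told apart here. With the replicate number as a block, ORF1p RIP over mock IP gave 678 higher (46.8%, against 13% of all loci) and 45 lower (3.10%, against 31%). ORF2p RIP over mock IP gave 1283 higher (88.5%, against 7.69%). ORF2p RIP over ORF1p RIP gave 1064 higher (73.4%, against 33.4%) and 13 lower (0.897%, against 16.6%), and mock IP over total RNA 0 higher (against 0.0224%). In 17 of 42 matches a library correlated best with its own number, where group sizes alone give 10.3, a count from the data and not from the design. Copies with a few mock reads have wide counting intervals, and these do not cover the sharing of reads between copies.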
